A study of Mus musculus with 6 samples.

Results

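Six-letter poly(A) signals that carry 1 changed base at base 4, 5 or 6 of the canonical hexamer are described here, as they were listed upstream of RNA 3′ ends in mouse embryonic stem cells. The canonical signal was taken as the deposited hexamer with the most reads, AATAAA. A listed cleavage position was a member when its deposited hexamer differed from AATAAA by exactly 1 base, counted from 1 at the 5′ end, at base 4, 5 or 6. There were 198443 such positions among 2333467 distinct positions outside chromosome M (8.50%), and they held 2.87% of the reads. They fell into 6 hexamers. The substitutions A4C, A6C and A6G had no listed position.

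Sequencing of RNA 3′ ends was done on V6.5 cells, a pluripotent mouse line of mixed C57BL/6 and 129 background, in 3 groups of 2 libraries. The first group received an antisense morpholino oligonucleotide (AMO) against U1, the second a scrambled AMO, and the third was untreated; all shared the same line and standard culture. The series' text calls the replicates biological. Each library is a pool of cells of this 1 line, so more cells using a site and more RNA per cell cannot be told apart. Markers of stem cells were not checked, because the positions are in mm9 coordinates and no annotation of that build was used.

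The poly(A) signal is the RNA hexamer that the cleavage and polyadenylation specificity factor binds, a short way upstream of the cut. The canonical hexamer and the form with U at its second base are the commonest in mammals, and other single-base changes are known to be weaker signals in reporter assays. The U1 snRNP, a particle of RNA and protein, pairs with 5′ splice sites during splicing and is also known to suppress cleavage at signals inside transcribed regions. The 6 hexamers are shown as the authors' lists give them, in DNA letters, because the position and kind of the changed base define each class. The changed base is in capitals.
A4G: aatGaa
A4T: aatTaa
A5C: aataCa
A5G: aataGa
A5T: aataTa
A6T: aataaT
canonical: aataaa
A2T, the second commonest: aTtaaa

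The 6 variants were of very unequal use. AATATA (A5T) had the most reads of them, 1.12% of all reads, and AATACA (A5C) had 0.938%; among the 36 deposited hexamers they ranked 5 and 6. AATGAA (A4G) had 0.385% and ranked 12, AATAGA (A5G) had 0.207% and ranked 14, AATAAT (A6T) had 0.150% and ranked 16, and AATTAA (A4T) had 0.0754% and ranked 24. The canonical hexamer held 70.4% of reads and ATTAAA (A2T) 17.2%. By distinct positions the order changed, with 56679 for AATACA, 51517 for AATATA, 41884 for AATGAA, 21753 for AATAGA, 13551 for AATTAA and 13059 for AATAAT.

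Which hexamer a position carries followed a fixed order in the deposited lists. A hexamer occurrence known from any listed position was searched for in the 6 to 40 nt upstream of every other position. Among 610 pairs of hexamers that met in such a window, 0 pairs were resolved both ways, and where the same hexamer occurred again, the nearer copy was listed in 59509 of 59509 cases. The canonical hexamer was listed over each of the 6 variants in every meeting, from 1449 positions for AATAGA to 4331 for AATGAA. In turn, AATATA gave way to 5 kinds of hexamer, AATACA to 6, AATGAA to 9, AATAGA to 11, AATTAA to 16 and AATAAT to 22. A listed variant therefore marks a position at which no hexamer higher in that order was listed, and the place in the order was among the things in which the variants differed.

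Positions with a variant carried fewer reads than canonical ones on average. The medians lay closer together and were not tested. The median for AATATA was 1 and 2 reads in U1 AMO, 1 and 2 in scrambled AMO, and 2 and 8 in untreated libraries. For AATTAA it was 1 in every AMO library, and 1 and 4 in untreated ones. The canonical median was 2 in every AMO library, and 3 and 10 in untreated ones. The means were as follows. AATATA averaged 11.7 and 22.2 reads per listed position in the U1 AMO libraries, 16.5 and 28.5 in the scrambled AMO libraries, and 29.3 and 83.0 in the untreated libraries. The canonical hexamer averaged 32.1 and 77.1 in U1 AMO, 49.3 and 97.1 in scrambled AMO, and 75.5 and 177 in untreated libraries. These levels follow the depth and number of listed positions of each library, so they were compared within a library. AATATA stood at 0.351 of the canonical level (geometric mean of 6 libraries, range 0.288 to 0.470), AATACA at 0.283 (0.249 to 0.331) and AATAAT at 0.240 (0.149 to 0.366). AATAGA stood at 0.185 (0.161 to 0.230), AATGAA at 0.177 (0.152 to 0.205) and AATTAA at 0.115 (0.0939 to 0.140). Each was lower than the canonical hexamer in 6 of 6 libraries (two-sided exact sign-flip permutation test over libraries, adjusted p = 0.03125 over the 6 hexamers, the smallest this design can give). Against ATTAAA the 6 ratios were 0.485 for AATATA, 0.390 for AATACA, 0.332 for AATAAT, 0.256 for AATAGA, 0.244 for AATGAA and 0.159 for AATTAA, each below 1 in 6 of 6 libraries with the same adjusted p. The libraries share genomic sites, so these tests speak for the spread between libraries and not between sites. AATAAA and ATTAAA were also picked as the hexamers with the most and second most reads in these same libraries. The comparisons with them are therefore not independent of that choice, and the ratios are given as a description.

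**Figure D1:**
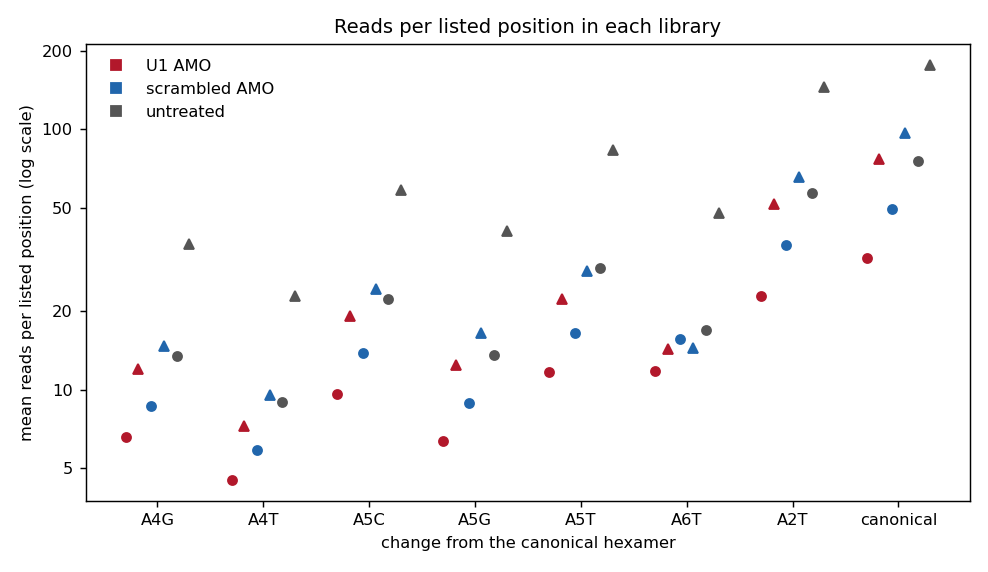
Mean reads per listed position (log axis) for the 6 variants, for ATTAAA (A2T) and for the canonical hexamer, with 1 symbol per library in the order U1 AMO, scrambled AMO, untreated; circles are replicate 1 and triangles replicate 2. In every library each variant lies below A2T and the canonical hexamer, A4T being the lowest of all.

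Variants changed at the same base differed by the base put in. Of the 15 pairs of variants, 10 differed in reads per position at an adjusted p of 0.0469 (exact sign-flip permutation test, 6 libraries, adjusted over 15 pairs). Here too the libraries share genomic sites, and same-numbered AMO libraries shared a run, so the 6 are not fully independent. AATACA had 0.805 of the reads per position of AATATA (range 0.704 to 0.865), and AATAGA had 0.528 (0.465 to 0.577), both lower in 6 of 6 libraries. AATACA was 1.52 times as high as AATAGA (1.43 to 1.63). At base 4, AATGAA was 1.53 times as high as AATTAA (1.46 to 1.65). AATGAA and AATAGA, which hold the same G one base apart, had a ratio of 0.955 (0.888 to 1.03), lower in AATGAA in 5 of 6 libraries (adjusted p = 0.134, exact permutation). Among the 5 pairs that hold AATAAT, only the pair with AATTAA passed (AATTAA at 0.480 of AATAAT, 0.373 to 0.661). Single sites weigh in the ratios given here and above. The strongest site held 22.1% of AATAGA reads and 8.67% of AATGAA reads, and 30.7% of AATAAT reads and 38.4% of AATTAA reads. The order of the variants without these sites was not tested.

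Taken as a set, the variants at bases 4 to 6 had 0.470 of the reads per position of variants at base 1 or 2 (range 0.428 to 0.512, lower in 6 of 6 libraries, p = 0.03125, exact sign-flip permutation test). ATTAAA, which is the second commonest signal, belongs to the set at base 1 or 2. Without it the ratio was 0.746 (0.673 to 0.807), again lower in 6 of 6 libraries with an exact permutation p of 0.03125. These ratios pool positions, so hexamers with many positions weigh most, and they do not order every hexamer of one set below the other. The libraries share genomic sites, and same-numbered AMO libraries shared a run. The part of the listing order in these ratios was not tested.

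The variants were also thinner on the ground at each occurrence. An occurrence of AATATA had 2.33 listed positions on average and one of AATACA 2.31, against 3.07 for the canonical hexamer. AATTAA had 1.64 and AATAAT had 1.79, while AATAGA had 1.88 and AATGAA had 1.94. Of AATTAA occurrences 77.6% had only 1 listed position, against 56.0% of canonical ones. Positions seen in all 6 libraries made up 7.28% of AATATA positions and 2.57% of AATTAA positions, against 13.3% of canonical positions. A position with a hexamer higher in the order above was listed under that hexamer and is not counted here for the variant. For AATAAT, 2490 positions went to the canonical hexamer, beside 13059 listed for AATAAT. The parts of this order and of read level in these values were not tested.

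The distance from the hexamer to the cleavage position peaked at 20 to 22 nt for all 6 variants, as it did for the canonical hexamer at 20 nt. The shape around the peak differed. Of positions with AATATA 72.7% lay 15 to 30 nt from the hexamer, and of those with AATACA 72.1%, against 73.6% for the canonical hexamer. The share was 67.5% for AATAGA, 63.6% for AATGAA, 59.0% for AATAAT and 55.2% for AATTAA. The rest lay on both sides: 22.1% of AATTAA and 20.1% of AATAAT positions were nearer than 15 nt, against 10.9% of canonical ones, and 22.7% of AATTAA and 20.9% of AATAAT positions were beyond 30 nt, against 15.4%. AATAAT had 3.92% of its positions at 6 nt and 3.05% at 40 nt, the ends of the listed range, against 0.177% and 0.951% of canonical positions. In the listing order AATAAT gave way to 22 kinds of hexamer, the most of the 6 variants. The part of that order in the distance curves, these ends included, was not tested.

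**Figure D2:**
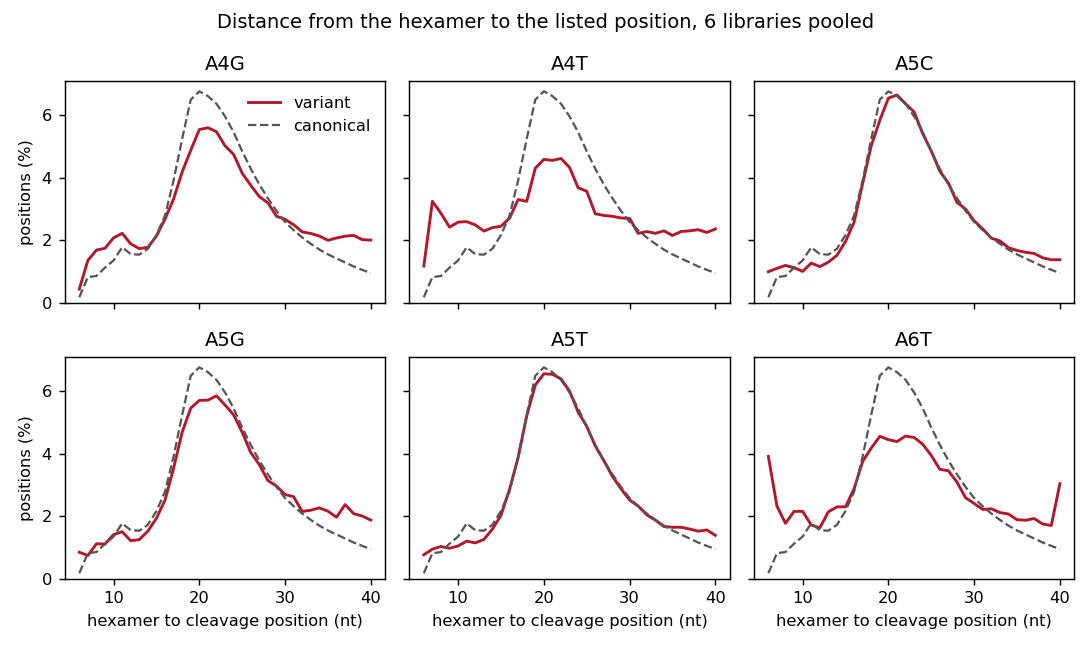
Share of listed positions (percent, 6 libraries pooled) at each distance in nt from the hexamer, for each variant (solid line) and the canonical hexamer (dashed line). A5C and A5T follow the canonical curve through the peak, whereas A4T and A6T have a lower peak and more positions at both ends.

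The mean distance hides that difference in shape. It averaged 22.5 nt for AATTAA, 22.4 nt for AATAAT and 23.7 nt for AATAGA, against 23.1 nt for the canonical hexamer. None of the 6 mean distances passed the test (exact sign-flip permutation, 6 libraries, adjusted p of 0.0625 for these 3 and 0.0938 for AATGAA, 0.938 for AATACA and 0.150 for AATATA). Yet AATTAA and AATAAT were nearer, and AATAGA farther, than the canonical hexamer in 6 of 6 libraries. Their unadjusted p was 0.03125, the smallest this test can give. After adjustment that p passes only where more of the 6 reach it, so the test cannot show a lack of difference. When every position counted by its reads, all 6 passed the same exact permutation test with an adjusted p of 0.03125. AATACA and AATAAT were nearer than the canonical hexamer, and the other variants were farther. For AATTAA and AATATA this was opposite to the mean over positions. Single sites weigh in these means. The strongest AATTAA site held 38.4% of its reads, with its strongest position at 29 nt. The strongest AATAAT site held 30.7%, with its strongest position at 15 nt. The part of these sites was not tested. The deposited whole number from 0 to 10, whose meaning the sources used here do not give, averaged 4.90 for AATACA to 5.36 for AATTAA. It averaged 5.04 for the canonical hexamer and 4.82 for ATTAAA. Against the canonical hexamer 0 of the 6 differences passed (smallest adjusted p = 0.0625, exact permutation). AATGAA and AATTAA were higher there, and AATACA lower, in 6 of 6 libraries. Against ATTAAA, every variant except AATACA was higher in 6 of 6 libraries (adjusted p = 0.0375, exact permutation).

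Many reads of the rarer variants came from a few sites. Positions of 1 strand with gaps of no more than 24 nt formed a cluster, each named for the hexamer of its strongest position, and 87185 of 931675 clusters (9.36%) were led by a variant. The strongest AATTAA cluster, on the plus strand at chr18:24797289-24797322 (mm9, as all coordinates here), held 38.4% of all AATTAA reads. It had 214 and 261 CPM (counts scaled to the library's total) in U1 AMO, 271 and 351 in scrambled AMO, and 315 and 264 in untreated libraries. The strongest AATAAT cluster, chr2:22442800-22442807 on the minus strand, held 30.7% of AATAAT reads, and the strongest AATAGA cluster, chr14:22664728-22664753 on the plus strand, 22.1%. For AATGAA (chr4:40883438-40883467, minus strand) the share was 8.67%, for AATATA (chr6:67234281-67234315, plus strand) 7.83% and for AATACA (chr4:147968689-147968727, plus strand) 3.96%. The strongest canonical cluster held 1.26% of canonical reads. The genes at these coordinates are not named, since no mm9 annotation was used.

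Clusters led by a variant often had a stronger cluster nearby. Among clusters with at least 5 reads in a library, a stronger one lay within 5000 nt downstream on the same strand for 56.9% ± 3.5 of AATAGA-led and 55.3% ± 2.5 of AATGAA-led clusters (SD, n = 6 libraries). The share was 51.7% ± 2.8 for AATATA, 51.7% ± 3.8 for AATAAT, 51.2% ± 6.7 for AATTAA and 48.8% ± 2.0 for AATACA, against 20.4% ± 1.5 for clusters led by the canonical hexamer. Upstream, the shares ran from 38.4% for AATGAA to 42.7% for AATAGA, against 23.8% for the canonical hexamer. All 12 differences were in the same direction in 6 of 6 libraries (exact sign-flip permutation test, adjusted p = 0.03125). A weaker cluster has more chances of a stronger neighbour, and the variants were weaker; the part of the level in these shares was not tested.

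Treatment was first compared by the reads of each hexamer. Replicates 1 of U1 AMO and scrambled AMO came from 1 sequencing run and replicates 2 from another, by the read names in the files, while each untreated library had a run of its own. Treatment and run therefore cannot be told apart in comparisons with untreated cells. The libraries held 15413148 to 61726804 reads outside chromosome M.

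In the total share of the 6 variants U1 AMO overlapped with scrambled AMO and was below both untreated libraries. Together the variants took 2.73% and 2.83% of reads in U1 AMO, 2.76% and 2.87% in scrambled AMO, and 3.13% and 2.84% in untreated libraries. The mean difference, U1 AMO minus scrambled AMO, was -0.0331 percentage points (two-sided exact permutation test, p = 0.667, where 2 libraries against 2 cannot go below 0.3333), and the difference was -0.0257 in the first run and -0.0405 in the second. Without the strongest cluster of each hexamer the share was 2.50% and 2.63% in U1 AMO, 2.53% and 2.66% in scrambled AMO, and 2.90% and 2.69% in untreated libraries, so that all 4 AMO libraries were below both untreated ones (p = 0.3333 for each AMO against untreated, exact permutation, the smallest this design allows). Their share of distinct positions was 6.78% and 8.13% in U1 AMO, 7.19% and 8.13% in scrambled AMO, and 7.83% and 5.98% in untreated libraries (U1 AMO against scrambled AMO, p = 0.667, exact permutation).

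By hexamer, 0 of the 36 kinds, and so 0% as the background for the members, passed edgeR's quasi-likelihood test with Benjamini-Hochberg adjustment in any of the 3 comparisons. At an unadjusted p under 0.05 there were 1 kind for U1 AMO against scrambled AMO, 9 for U1 AMO against untreated and 8 for scrambled AMO against untreated, and DESeq2 called 1, 10 and 7. For U1 AMO against scrambled AMO, 0 of the 6 variants had an unadjusted p under 0.05 and DESeq2 called 0. The log2 fold changes lay between -0.15 for AATTAA (SE 0.14) and 0.07 for AATAAT (SE 0.27). Both ends of this range moved with 1 site. Without the strongest cluster of each hexamer they were -0.008 for AATTAA (SE 0.17) and -0.06 for AATAAT (SE 0.18). The share of AATAAT was 0.191% and 0.149% in U1 AMO, 0.201% and 0.124% in scrambled AMO, and 0.164% and 0.136% in untreated libraries. The cluster on chromosome 2 held 48.7% and 33.4%, 46.1% and 21.2%, and 22.9% and 26.5% of AATAAT reads in the same order. Without the strongest cluster of each hexamer, AATAAT took 0.101% and 0.103% in U1 AMO, 0.112% and 0.101% in scrambled AMO, and 0.131% and 0.103% in untreated libraries.

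AATATA was the variant whose share separated treated from untreated libraries. It held 0.984% and 0.981% of reads in U1 AMO, 1.01% and 1.02% in scrambled AMO, and 1.32% and 1.30% in untreated libraries. All 4 AMO libraries were below both untreated ones, and the replicates of each group lay close together. The U1 AMO level was 0.750 of the untreated one, with a log2 fold change of -0.42 (SE 0.08, adjusted p = 0.0639, edgeR), and the scrambled AMO level was 0.773 of it, with a log2 fold change of -0.37 (SE 0.08, adjusted p = 0.0992, edgeR). Each had an unadjusted p under 0.05, but neither passed after adjustment over the 36 kinds. DESeq2 called both, with adjusted p = 0.000139 for U1 AMO and 0.000883 for scrambled AMO. Both comparisons use the same 2 untreated libraries. The 2 commonest signals also separated there, since ATTAAA held 16.5% and 17.0% of reads in U1 AMO, 16.7% and 16.9% in scrambled AMO, and 17.8% in both untreated libraries, and AATAAA was higher in all 4 AMO libraries than in either untreated one. Without the strongest cluster of each hexamer the shares of AATATA were 0.924% and 0.942% in U1 AMO, 0.960% and 0.976% in scrambled AMO, and 1.20% and 1.26% in untreated libraries. By distinct positions the groups overlapped, at 1.92% and 2.13% in U1 AMO, 2.02% and 2.13% in scrambled AMO, and 2.34% and 1.90% in untreated libraries.

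**Figure D3:**
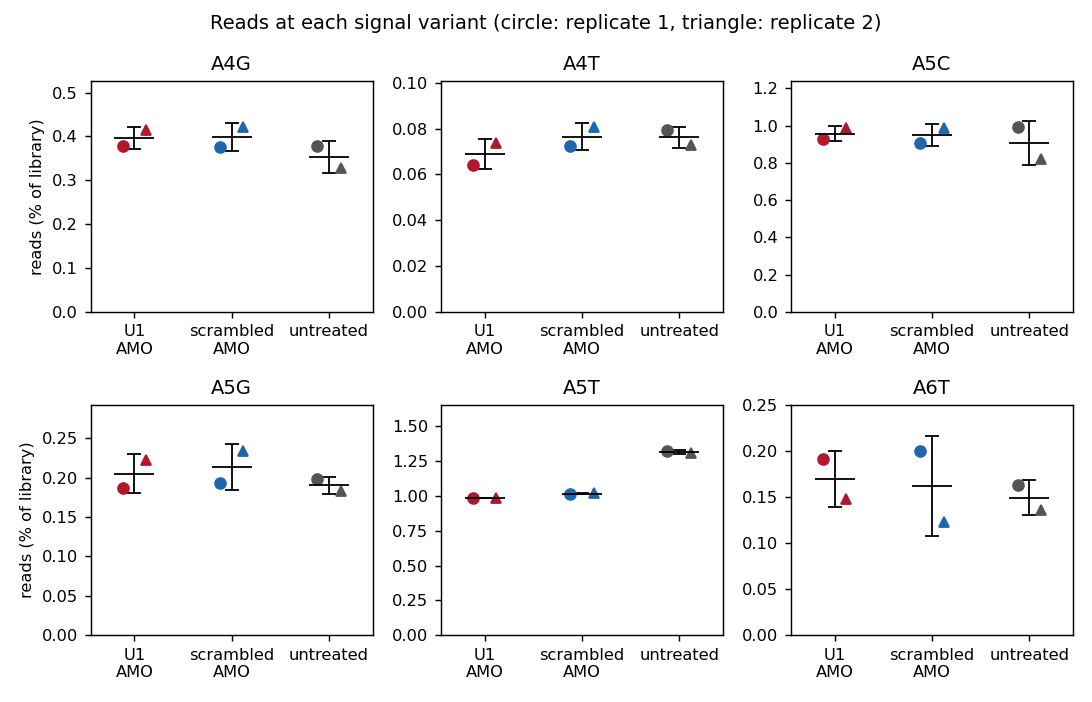
Reads of each variant as percent of all reads outside chromosome M, by library (circle replicate 1, triangle replicate 2), with the group mean and SD (n = 2) in black; U1 AMO, scrambled AMO and untreated run from left to right, and each axis starts at 0. For A5T the 4 AMO libraries sit at 0.981 to 1.02 percent and the untreated ones at 1.30 and 1.32, while for the other variants the untreated libraries overlap with the AMO libraries.

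For the other 5 variants the groups overlapped with all clusters counted. AATACA had 0.927% and 0.985% of reads in U1 AMO, 0.906% and 0.989% in scrambled AMO, and 0.992% and 0.822% in untreated libraries. AATGAA had 0.379% and 0.414% in U1 AMO, 0.377% and 0.421% in scrambled AMO, and 0.379% and 0.328% in untreated libraries. Without the strongest cluster of each hexamer, AATGAA had 0.356% and 0.378% in U1 AMO, 0.355% and 0.381% in scrambled AMO, and 0.354% and 0.314% in untreated libraries, so that all 4 AMO libraries were above both untreated ones, the nearest by a small margin. With all clusters, AATAGA had 0.187% and 0.222% in U1 AMO, 0.193% and 0.234% in scrambled AMO, and 0.198% and 0.183% in untreated libraries. In the same order, AATTAA had 0.0642% and 0.0737%, 0.0724% and 0.0807%, and 0.0795% and 0.0731%. None of these had an unadjusted p under 0.05 in a comparison with untreated cells in edgeR. DESeq2 called AATTAA lower in U1 AMO than in untreated cells (log2 fold change -0.30, adjusted p = 0.000389), a call that edgeR did not make (log2 fold change -0.15, SE 0.14, adjusted p = 0.629). Without the strongest cluster of each hexamer, the log2 fold change of AATTAA in edgeR was -0.06 (SE 0.17) in that comparison.

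Single sites did change. Of 5438 tested clusters led by a variant, 26 were higher in U1 AMO than in scrambled AMO cells (0.478%; 0.565% of all 80119 tested clusters) and 0 were lower (8 lower at an unadjusted p under 0.05, or 0.147%; 0.0974% of all tested clusters) in edgeR with TMM normalization and Benjamini-Hochberg adjustment. They were 9 AATATA-led, 6 AATACA-led, 5 AATAGA-led, 4 AATGAA-led and 2 AATAAT-led clusters. Of the 26, 8 had no read in scrambled AMO, and no such count was made for all called clusters. The 26 held 1.45% and 1.19% of the variants' reads in U1 AMO, 0.0112% and 0.00942% in scrambled AMO, and 0.00643% and 0.00557% in untreated libraries. Read against the background, the share of variant-led clusters called is no result about the variants. DESeq2 called 178 of 4976 variant-led clusters in this comparison (3.58%; 4.18% of all clusters it tested). Leaving out scrambled AMO replicate 2 left 0 called, and without scrambled AMO replicate 1, U1 AMO replicate 1 or U1 AMO replicate 2 there were 6, 72 or 3.

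Among clusters with at least 2 CPM, 5 had the highest log2 fold changes. The AATACA-led cluster chr6:70795328-70795387 (plus strand) had 180 and 301 reads in U1 AMO and 0 in both scrambled AMO and both untreated libraries, at least 195-fold higher in U1 AMO than in scrambled AMO cells, with 3 counts over the group as the floor (adjusted p = 0.0396). The AATACA-led cluster chr10:117139915-117139928 (minus strand) had 139 and 362 reads in U1 AMO and 0 in the 4 other libraries, at least 203-fold higher (adjusted p = 0.0330). The AATAAT-led cluster chr2:51003854-51003864 (minus strand) had 114 and 196 reads in U1 AMO and 0 in the others, at least 125-fold higher (adjusted p = 0.0468). These sites had 24, 23 and 21 nt between the hexamer and the strongest position, within the peak of the distance curve. The AATGAA-led cluster chr8:114467379-114467398 (plus strand) had 111 and 186 reads in U1 AMO and 0 in the others, at least 120-fold higher (adjusted p = 0.0483). The AATATA-led cluster chr10:88288888-88288904 (minus strand) had 745 and 2409 reads in U1 AMO, 2 and 0 in scrambled AMO and 0 in both untreated libraries. In U1 AMO it was 1914 times as high as in scrambled AMO cells, with a 95% counting interval of 529 to 15810 (exact, counting error only, since no molecular identifiers are described), and its adjusted p was 0.0270.

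When the run shared by same-numbered AMO libraries entered the fit as a replicate block, many more clusters passed. With groups and a block in 4 libraries, little is left to estimate the spread of a single cluster. These calls and p-values therefore lean on the spread shared between clusters. Of 4549 tested clusters led by a variant in the 4 AMO libraries, 527 were higher in U1 AMO (11.6%; 13.0% of all tested clusters) and 74 were lower (1.63%; 2.05% of all tested clusters). The 26 clusters above were among the 527. By hexamer the share that was higher ran from 9.09% of AATTAA-led and 9.28% of AATGAA-led clusters to 13.8% of AATACA-led and 14.2% of AATAAT-led clusters, with 10.7% for AATATA and 10.9% for AATAGA. The 527 clusters held 7.90% and 6.23% of the variants' reads in U1 AMO, 2.33% and 1.78% in scrambled AMO, and 1.64% and 1.57% in untreated libraries. Of the 527, 149 had no read in scrambled AMO, again without such a count for all called clusters. The 5 highest log2 fold changes were those of 4 clusters named above (the 2 led by AATACA, the one led by AATAAT and the one led by AATATA) and of the AATATA-led cluster chr10:75945678-75945707 (plus strand). That cluster had 87 and 301 reads in U1 AMO, 0 in both scrambled AMO libraries, and 0 and 26 in the untreated ones (adjusted p = 2.2e-08 with the replicate block and 0.101 without it, edgeR). Of its reads over the 6 libraries, 67.1% were at positions listed with AATATA and the rest at positions with another hexamer.

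The clusters that were lower in the blocked fit differed by less, and none of them was called without the block. The AATATA-led position 75784165 on the minus strand of chromosome 13 had 0 and 2.60 CPM in U1 AMO, 0.265 and 7.65 in scrambled AMO, and 7.83 and 0.631 in untreated libraries (log2 fold change -1.69, SE 0.33, adjusted p = 0.00159, edgeR). The AATGAA-led cluster chr16:11262290-11262293 (plus strand) had 0.324 and 27.3 CPM in U1 AMO, 5.68 and 49.0 in scrambled AMO, and 2.71 and 5.82 in untreated libraries (log2 fold change -1.51, SE 0.34, adjusted p = 0.00494, edgeR). In both, the 2 runs differed by more than the treatments did, and the groups overlapped. Of the other three with the lowest log2 fold changes, AATGAA led chr1:88150755-88150759 (-1.47, minus strand), AATACA led chr7:143160587-143160590 (-1.43, plus strand) and AATTAA led chr5:117916953-117916955 (-1.36, minus strand).

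**Figure D4:**
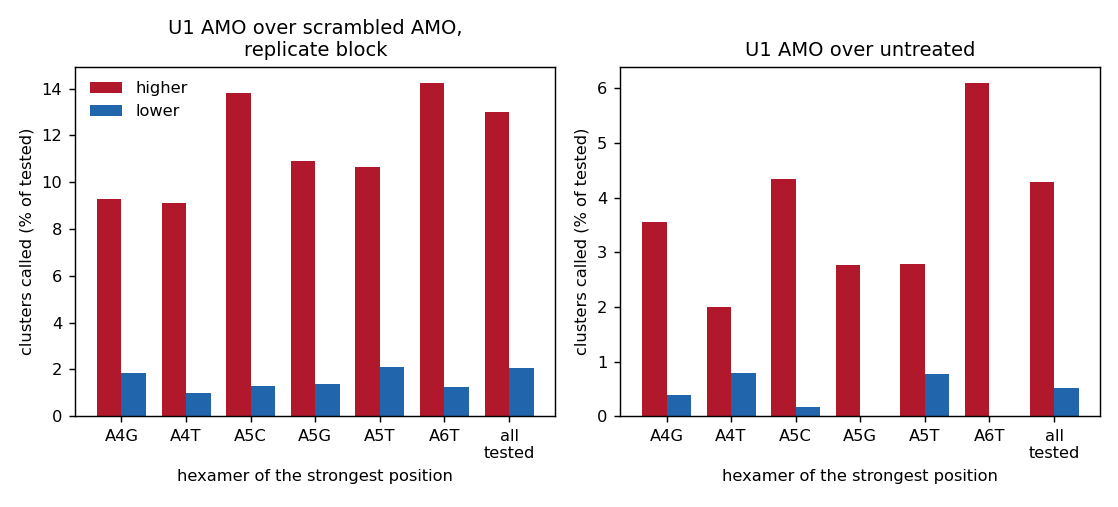
Clusters called higher (red) or lower (blue) as percent of tested clusters, by the hexamer of the strongest position and for all tested clusters; left, U1 AMO over scrambled AMO with the replicate block in 4 AMO libraries, and right, U1 AMO over untreated. The shares of the variants lie around the 13.0 and 4.29 percent of all tested clusters that were higher.

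Against untreated cells, 195 of the 5438 variant-led clusters were higher in U1 AMO (3.59%; 4.29% of all tested clusters) and 21 were lower (0.386%; 0.515% of all tested clusters) in edgeR. Leaving out a library moved the 216 calls to between 49 (without U1 AMO replicate 2) and 535 (without untreated replicate 1), with 87 without untreated replicate 2. Of the 195, 124 had no read in untreated cells, and no such count was made for all called clusters. The AATATA-led cluster chr10:88288888-88288904 was again the highest, at least 1427-fold. The AATATA-led cluster chr6:72385766-72385795 (minus strand) had 503 and 1725 reads in U1 AMO, 4 and 0 in scrambled AMO, and 0 in both untreated libraries, at least 1008-fold higher in U1 AMO than in untreated cells (adjusted p = 0.0191). The AATAGA-led cluster chr5:110876506-110876545 (minus strand) had 196 and 585 reads in U1 AMO, 1 and 0 in scrambled AMO, and 0 in both untreated libraries, at least 353-fold higher (adjusted p = 0.0149). AATACA led the other two, chr5:43627170-43627211 (plus strand) at least 280-fold and chr17:26055945-26055959 (minus strand) at least 226-fold higher.

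Of the 1540 tested AATATA-led clusters, 12 were lower in U1 AMO than in untreated cells (0.779%; 0.515% of all tested clusters) and 43 were higher (2.79%; 4.29% of all tested clusters). The share that was lower was 0.729% for ATTAAA-led clusters. AATGAA led 4 of the lower clusters (0.385% of its tested clusters), while AATACA led 3 (0.171%) and AATTAA led 2 (0.797%). The AATATA-led cluster chr11:72203612-72203638 (minus strand) had 18.2 and 14.6 CPM in U1 AMO, 16.7 and 17.6 in scrambled AMO, and 87.4 and 68.2 in untreated libraries (U1 AMO over untreated, log2 fold change -2.34, SE 0.32, adjusted p = 0.0215). The 4 AMO libraries were alike there and far below both untreated ones. The AATATA-led cluster chr15:99043570-99043593 (plus strand) had 2.14 and 2.52 CPM in U1 AMO, 2.54 and 2.24 in scrambled AMO, and 9.60 and 11.7 in untreated libraries (log2 fold change -2.24, SE 0.39, adjusted p = 0.0332). The AATATA-led cluster chr5:113672237-113672244 (minus strand) had 1.30 and 1.42 CPM in U1 AMO, 2.27 and 2.43 in scrambled AMO, and 7.36 and 11.0 in untreated libraries (log2 fold change -2.80, SE 0.43, adjusted p = 0.0255). The other two with the lowest log2 fold changes were the AATATA-led chr7:25711600-25711617 (-2.76, plus strand) and the AATACA-led chr11:62418381-62418395 (-2.44, minus strand).

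Scrambled AMO against untreated gave 0 called clusters among the 5438 led by a variant (0% of all 80119 tested) in edgeR. At an unadjusted p under 0.05, 453 were higher in scrambled AMO (8.33%; 8.53% of all tested clusters) and 203 lower (3.73%; 4.54% of all tested clusters). DESeq2 called 113 of 3829 (2.95%; 3.70% of all clusters it tested). For the 1540 AATATA-led clusters the unadjusted counts ran the other way, with 78 higher and 100 lower in scrambled AMO.

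AATATA-led clusters had a negative median fold change in both comparisons of AMO with untreated cells, while their fold changes spread over both sides of 0. With TMM normalization the median log2 fold change of all tested clusters was 0.24 for U1 AMO over untreated, 0.15 for scrambled AMO over untreated and -0.02 for U1 AMO over scrambled AMO. The medians of the 1540 AATATA-led clusters were -0.20, -0.12 and -0.13 for the same comparisons, and 43.8% of them were above 0 in each of the comparisons with untreated cells, against 56.9% and 55.3% of all tested clusters. Those of the 1753 AATACA-led clusters were 0.34, 0.28 and -0.03, and those of the 1039 AATGAA-led clusters 0.29, 0.34 and -0.08. The 251 AATTAA-led, 543 AATAGA-led and 312 AATAAT-led clusters had medians of -0.01, 0.17 and -0.06 for U1 AMO over untreated. These are descriptions of clusters that passed a filter on low counts, and the comparisons share their libraries.

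**Figure D5:**
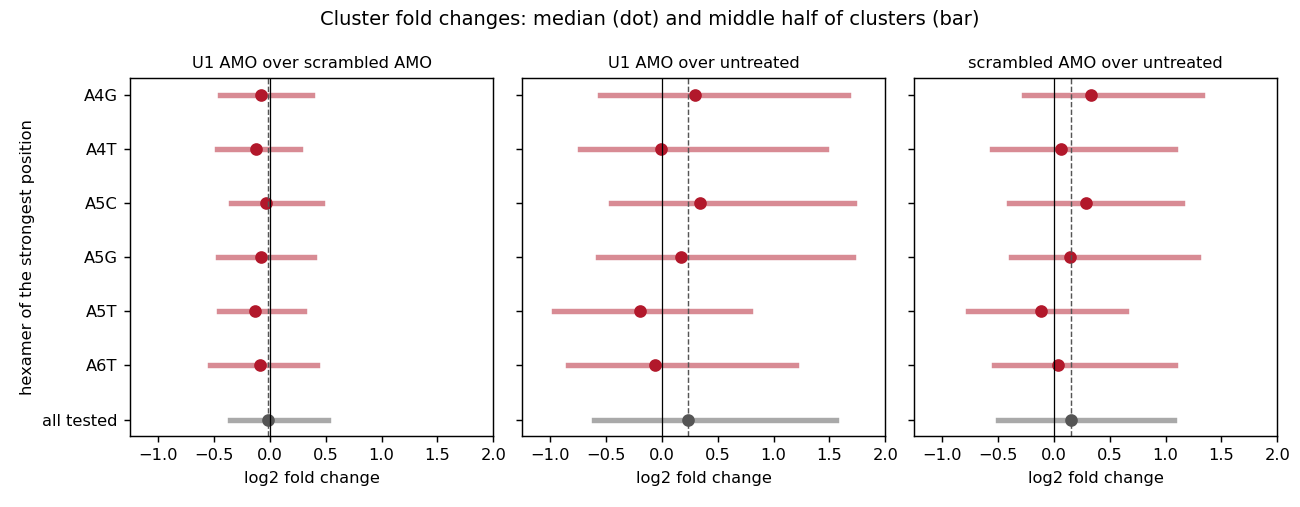
Log2 fold changes of tested clusters by the hexamer of the strongest position, with the median as a dot and the middle 50% of clusters as a bar, and all tested clusters in grey (dashed line, their median). In both comparisons with untreated cells the A5T median lies below 0, at -0.20 and -0.12, while those of all tested clusters are 0.24 and 0.15.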

How the data were processed

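The libraries were made from poly(A)-selected RNA by RNase T1 digestion, reverse transcription, circularisation and PCR, per the labels' protocols; no molecular identifiers are described. Cutadapt, Bowtie and build mm9 are named in the submitters' processing notes, with no versions. The filter behind the lists of positions is not stated in those notes or labels. The authors deposited, for each library, whole-number read counts per stranded position, not normalized, each with a hexamer and its distance. The deposited score, a whole number from 0 to 10 per position, is of unstated meaning.

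Clusters, shares and CPM were computed here with scipy 1.17.1, numpy 2.4.6 and pandas 2.3.3 in Python 3.11.15. Counts were tested with edgeR 4.0.16 in R 4.3.3 (quasi-likelihood, all 6 libraries in 1 fit, adjusted p under 0.05), with library size only for hexamers and with TMM and filterByExpr for clusters, and with DESeq2 1.42.0 as an alternative. SEs come from each fold change and the square root of its F value. The scripts were tested on simulated data. Sign-flip tests were adjusted over the 6 hexamers found, where the design had allowed for 9 possible substitutions. Clusters named are the strongest of each hexamer and the 5 highest and 5 lowest called log2 fold changes at 2 CPM or more. The members and lists were chosen with earlier results of these data known. Same-numbered AMO libraries shared a run, per the read names in the files, and their deviations from the group means correlated (Pearson's r = 0.785 across 30218 clusters).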

Additional observations from a re-analysis of the deposited data

How the results depend on the processing

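The number of variants called among the 36 hexamer kinds was 0 for U1 AMO against scrambled AMO under every setting run, the replicate block included. Against untreated cells AATATA was called under TMM factors (1 variant for each AMO, log2 fold change -0.51 for both), and DESeq2 called 1 variant for scrambled AMO and 2 for U1 AMO. For U1 AMO it was also the 1 called with the deposited value at 5 or less, without the strongest cluster of each hexamer (added after seeing the data) and without untreated replicate 1; leaving out each replicate in turn gave 0 to 1. Variant-led clusters called for U1 AMO against scrambled AMO (26) numbered 178 under DESeq2, 176 with no filter on low counts, 601 with a replicate block in 4 AMO libraries, 0 with a replicate block over 6 libraries, and 0 to 72 with a library left out. The cause was not tested. For most settings in this section the share over all tested clusters is not given beside the cluster counts. These counts, and those with a library left out above, show how the calls moved and are no result about the variants. For scrambled AMO against untreated (0) they were 113 under DESeq2 and 79 with no filter. For U1 AMO against untreated (216) they were 570 under DESeq2, 405 with no filter, 0 with a replicate block over 6 libraries, and 49 to 535 with a library left out. Mean distance passed for 0 variants, but for 4 with at least 2 reads per position, 5 with the strongest position of each cluster, 6 weighted by reads and 4 with the deposited value at 5 or less. With the strongest position, AATTAA was 1.12 nt, AATACA 1.07 nt and AATATA 1.26 nt farther than the canonical hexamer, a reversal; weighted by reads, AATTAA and AATATA were 0.93 and 0.57 nt farther. Reads per position stayed below the canonical hexamer for all 6 variants under every setting run; with a library left out 0 passed, since 5 libraries cannot give a p below 0.0625. The replicate block was run for treatment comparisons only. Low counts limit the rare variants: filterByExpr kept 251 AATTAA-led and 312 AATAAT-led clusters.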
